A study of Dorcoceras hygrometricum with 51 samples.

Results

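The regions described here are the gene promoters of the resurrection plant Boea hygrometrica whose CG methylation was at least 20 percentage points higher in A4D than in A4. A4 are acclimated plants grown on for 4 weeks, and A4D are the same kind of plants after rapid air-drying. The promoters were chosen by the CG values of these 2 libraries, so the difference between A4D and A4 is a description and not a result. Of 18514 promoters with a CG value in A4D and in A4, 1086 met the rule, which is 5.87% (called members below). In the opposite direction 211 promoters (1.14%) lost at least 20 points. Of the members, 1037 had a CG value in all 12 bisulfite libraries, as did 18186 promoters in total. Every member was kept, and counts over all 12 libraries use the 1037.

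Leaves of seedlings that were 3 months old at the start were taken for whole-genome bisulfite sequencing, which reads the methylation of single cytosines, and for RNA-seq. SD are plants dried slowly in their soil, and F are fresh plants that had not been dried. A are plants rewatered after that slow drying (acclimated), and AD are A plants after rapid air-drying. F4 are never-acclimated plants kept for 4 weeks, F4D are F4 after rapid air-drying, and A18, A18D, F18 and F18D are the corresponding groups at 18 weeks. FD, the rapidly air-dried F plants, had RNA libraries only. Each bisulfite library is DNA pooled from 6 biological replicates, so every methylation value rests on 1 library and has no replicate check. Each RNA group has 3 biological replicates, and each replicate pools leaves of at least 15 plants.

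Plant cytosines are methylated in the contexts CG, CHG and CHH, where H is any base but G. CG methylation is copied after DNA replication by a maintenance methyltransferase, CHG methylation is kept up together with a histone mark, and CHH methylation has to be set anew, largely through small RNAs. Methylation in all contexts is typical of transposons and silent repeats, while methylation of CG alone is also common in expressed genes. A promoter is here the 2 kb that the study assigned to a gene. By the study's account its methylation level is an average over its cytosines of a context, and the level of a cytosine is the percentage of methylated reads. Read numbers per promoter were not analysed here, so the depth behind each level is unknown, and a level of 0 or 100 may rest on few reads.

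A4 stood apart from the other libraries over the whole set of promoters. Over the 18186 promoters its median CG level was 51.9%, against 58.7% in A4D and 58.27 to 64.19% in the other 10 libraries. A4 was the lowest of the 12 libraries at 8427 promoters (46.3%), whereas each of the other 11 was lowest at 478 to 1143. At 869 promoters A4 lay at least 20 points under the median of the other 11, against 92 to 298 promoters for any other library. A4D was not unusual in this way, with a median distance of -0.01 points from the other 11 libraries, where A4 had -6.019 points. With 1 library of each group, the state of the A4 plants and the way this library was made cannot be told apart. The label of the set, a gain in dried A4, was therefore compared with the other 10 libraries.

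The members gained a median of 25.69 points in A4D over A4, with quartiles of 22.15 and 33.29, against a median change of 5.439 points over all promoters. A gain of at least 30 points was found for 357 members, of at least 40 points for 150, and of at least 50 points for 69. The steepest gain belonged to F511_23468, a gene tag with no annotated product, named for this after its values were seen, at 97.4% in A4D and 7.41% in A4. Just inside the limit, KZV23013 had 20% in A4D and 0.0% in A4, and F511_00174 had 100% in A4D and 80.0% in A4. Just outside it, KZV45719 gained 19.998 points and KZV55212 gained 19.996 points. The limit thus runs through a dense part of the distribution, and 5534 promoters gained at least 10 points.

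In the other 10 libraries the members had the level of A4D and not that of A4. Their median CG level was 65.0% in A4D and 34.1% in A4, and it lay between 56.25 and 62.67% in each of the other 10. Fresh and dried plants, acclimated or not, were alike in this respect. The same order held in CHG, with a median of 39.8% in A4D, 15.3% in A4 and 32.43 to 42.08% in the other 10. In CHH the members had 15.1% in A4D, 7.32% in A4 and 10.7 to 16.98% in the other 10. No member was listed at a CG level of 0 in A4D, 63 were in A4, and 14 to 44 were in the other 10. Of the 63, 29 were above 0 in all of the other 11 libraries.

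**Figure D1:**
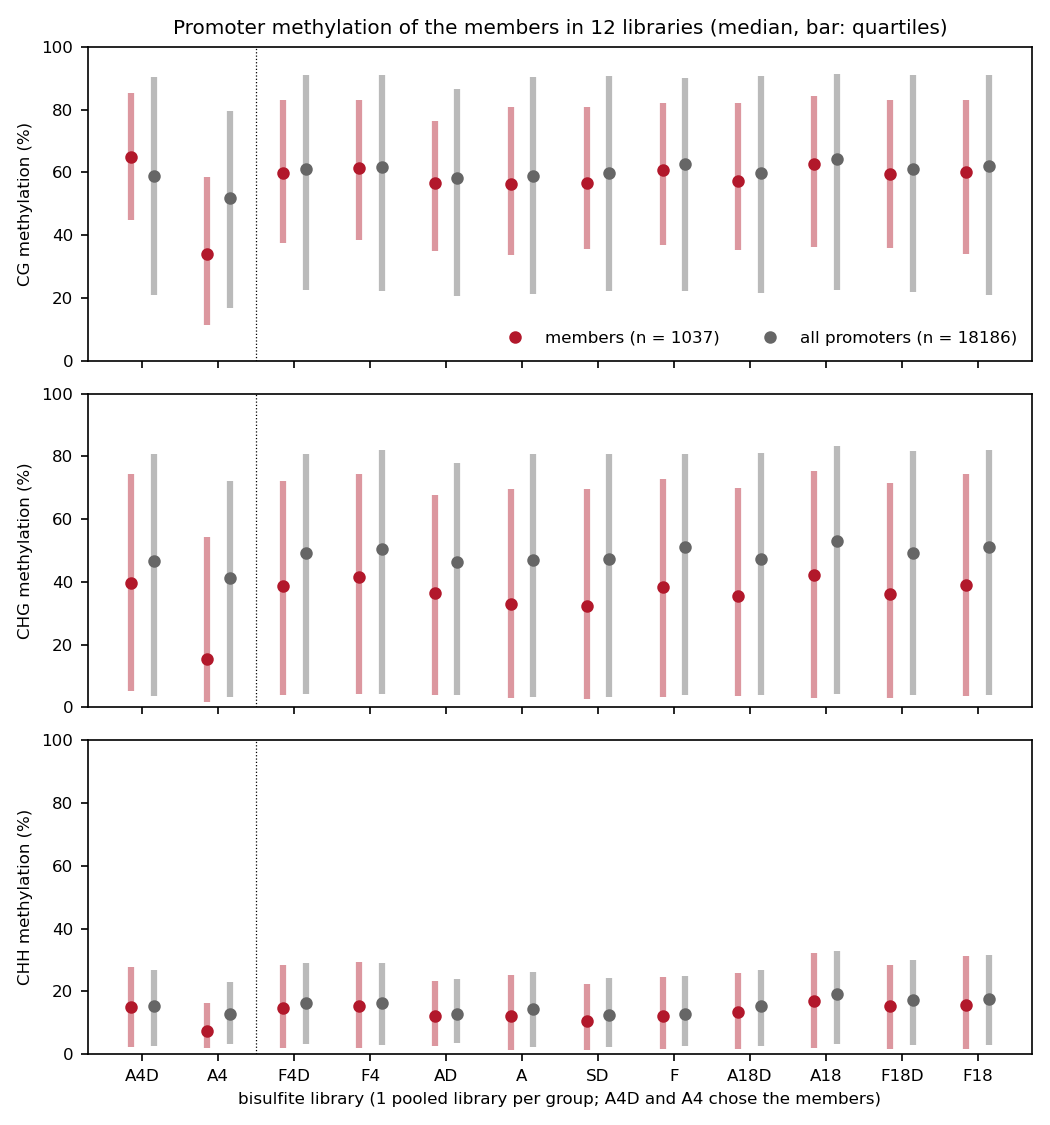
Median (point) and quartiles (bar) of the promoter methylation level in percent, in CG, CHG and CHH, for the 1037 members (red) and the 18186 promoters (grey) in each of the 12 bisulfite libraries. The members sit at 34.1% CG in A4 and between 56.25 and 65.0% in the other 11 libraries.

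Measured from the median of the other 10 libraries, A4D had a median distance of 4.111 points (quartiles 0.133 and 11.54) and A4 of -21.01 points (quartiles -28.2 and -15.67). A4 was further from the other 10 than A4D at 836 members, and A4D was further at 201. At 206 members (19.9%) A4D was above each of the other 10, which holds for 6.43% of all promoters. At 714 members (68.9%) A4 was below each of them, which holds for 47.4% of all promoters. Both held at 117 members, and neither at 234 (22.6%). A4D exceeded the median of the other 10 by at least 20 points at 105 members, and A4 fell short of it by at least 20 points at 585. Since the rule asks for a high A4D and a low A4, part of both shares is set by it. A4 being low was the more frequent of both.

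**Figure D2:**
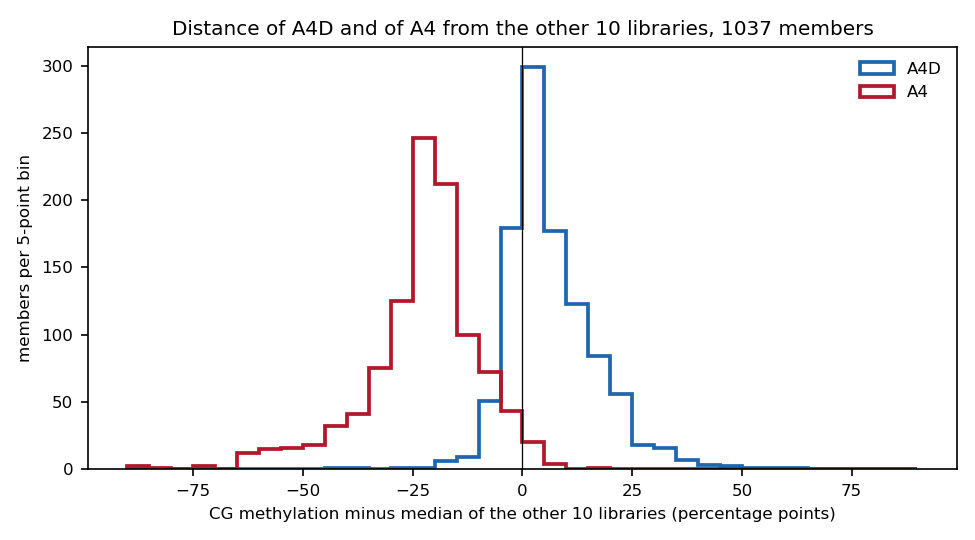
Number of the 1037 members per bin of 5 percentage points of distance in CG methylation from the median of the other 10 libraries, for A4D (blue) and A4 (red). The A4D distances centre near 4.111 points and the A4 distances near -21.01 points.

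The same rule applied to the other drying pairs gave sets that were smaller and more evenly split between the 2 libraries. A gain of at least 20 points was found at 415 promoters (2.23%) in F4D/F4, 333 (1.8%) in AD/A, 481 (2.6%) in SD/F, 389 (2.1%) in A18D/A18 and 512 (2.77%) in F18D/F18. In those sets the median distance from the other 10 libraries was 11.81 to 17.0 points for the dried library and -16.79 to -12.16 points for the undried one. In A4D/A4 gains outnumbered losses, at 1086 and 211. In the other pairs they were closer, for example 415 gains and 344 losses in F4D/F4 and 389 gains and 596 losses in A18D/A18. The promoters that gained in another pair were members in 63 of 415 cases for F4D/F4 (15.2% of that set and 5.8% of the members). For AD/A they were in 93 of 333 cases (27.9% of that set and 8.56% of the members). In SD/F, A18D/A18 and F18D/F18 the shares were 16.8, 20.6 and 19.3% of the set and 7.46, 7.37 and 9.12% of the members. Of all promoters 5.87% are members. The promoters that lost at least 20 points in A4D/A4 were split as well, with a median distance of -16.23 points for A4D and 11.93 points for A4.

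Members varied more than other promoters in libraries that the rule did not use. The standard deviation over the other 10 libraries had a median of 8.229 points for members and 3.508 points for all promoters. The range over these 10 reached 20 points at 655 members (63.2%), against 24.7% of all promoters and 88.5% of the promoters that lost methylation. The remaining 382 members were steady, with a median of 86.52% in A4D, 60.83% in A4 and 84.32% in the other 10. In this steady group A4 lay below each of the other 10 libraries at 371 promoters, and A4D lay above each of them at 94. With a range under 20 points, the rule requires at least 1 of A4 and A4D to lie outside it. Promoters of intermediate level were the most frequent members. With the level taken from the other 10 libraries, 10.0% of the promoters between 30 and 50% CG and 9.63% of those between 50 and 70% were members. The share was 1.43% below 10% CG and 3.52% above 90%.

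By the contexts methylated in the other 10 libraries, the members included more promoters with CG methylation alone. This class (at least 20% CG, under 10% CHG and under 5% CHH) held 212 members, 20.4% of the 1037, while it held 6.46% of all promoters. Their median CG level was 57.32% in A4D, 26.62% in A4 and 44.37% in the other 10. A4 was below each of the other 10 at 119 of them and A4D was above each at 60. CG-only promoters vary more between libraries in general, with a median standard deviation over the other 10 of 9.129 points, against 3.508 points for all promoters. Promoters with at least 50% of both CG and CHG made up 38.5% of the members (399) and 47.9% of all promoters. There the CG level was 88.04% in A4D, 60.94% in A4 and 83.95% in the other 10, and the CHG level 80.7% in A4D, 60.77% in A4 and 78.37% in the other 10. Promoters with at least 20% CHH made up 38.3% of the members (397) and 39.6% of all promoters.

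The other contexts moved with CG in A4D/A4, as values of the contrast that chose the members. CHG methylation was higher in A4D at 912 members and lower at 166, with a median difference of 15.24 points against 3.317 over all promoters. It was at least 20 points higher at 361 members (33.2%), against 3.39% of all promoters. CHH methylation was higher at 764 members and lower at 321, with a median difference of 3.896 points against 1.21 over all promoters. It was at least 20 points higher at 121 members (11.1%), against 0.951% of all promoters.

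Members were named mostly for a large gain, so a low A4 at them was selected for, and their values are a description. Each promoter is named for the gene of its own tag, a join that expression did not settle. The GDSL esterase/lipase gene KZV56376 (scaffold KQ988202.1, 745520 to 747020 in the deposited annotation) had 85.2% CG in A4D and 0.0% in A4, and the other 10 libraries lay between 80.2 and 90.7% around a median of 82.1%. GDSL enzymes are esterases and lipases of which many act on surface lipids and cell walls. The same promoter had 35.9% CHG in A4D, 2.0% in A4 and 23.6 to 54.5% in the other 10. The promoter of KZV42812, a calcium-dependent protein kinase (CDPK11-like) of the family that relays calcium signals, had 62.0% in A4D, 0.667% in A4 and 53.8 to 65.5% in the other 10. Its CHH level was 40.9% in A4D, 1.34% in A4 and 33.3 to 43.7% in the other 10. At both genes A4D lay within the range of the other 10, and A4 lay below all of them in CG, CHG and CHH.

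More members had this form. KZV32904, a NAC domain transcription factor (NAC45) whose Arabidopsis counterpart acts in sieve element formation, had 66.1% in A4D, 0.0% in A4 and 50.6 to 78.9% in the other 10. KZV45634, a pentatricopeptide repeat (PPR) protein of the family that processes organelle RNA, had 57.1% in A4D, 0.0% in A4 and 47.1 to 82.7% in the other 10. KZV38519, an NAD(P)H-hydrate dehydratase that repairs damaged cofactor, had 75.1% in A4D, 15.1% in A4 and 65.8 to 73.5% in the other 10. A4D was above the other 10 there by a small margin, and A4 was far below. KZV30079, factor of DNA methylation 1 (FDM1), part of RNA-directed DNA methylation in Arabidopsis, had 48.2% in A4D, 1.43% in A4 and 29.6 to 76.8% in the other 10.

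At other members single further libraries were also low. KZV32897, an aspartic protease (nepenthesin-2 precursor), had 66.8% in A4D and 0.0% in A4, but F and A18 were also at 0.0% while the other 8 libraries had at least 52.9%. KZV34972, an 18.1 kDa class I heat shock protein of the small chaperones that hold unfolding proteins, had 74.0% in A4D and 6.5% in A4, and F was at 0.0% while the others had at least 49.2%. KZV24281, TONNEAU 1a-like, which in Arabidopsis orders microtubules before division, had 66.0% in A4D and 0.0% in A4, and F4 was at 0.0%. KZV42474, a papain family cysteine protease, was the reverse of the steady promoters: A4D was at 59.0%, A at 50.4%, F18D at 51.1% and SD at 39.4%, and A4 and the other 7 lay between 0.0 and 8.18%. The libraries low at KZV32897, KZV34972 and KZV24281 were all of undried plants, while at KZV42474 dried and undried libraries fell on both sides. At further members the low library besides A4 was a dried one, as at KZV53314 (SD at 0.0%) and KZV17341 (F18D at 0.855%). KZV25691, a flavonoid 3',5'-hydroxylase of anthocyanin synthesis, had 84.8% in A4D and 0.0% in A4, and AD and SD, the only other libraries that list it, were at 0.0%.

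**Figure D3:**
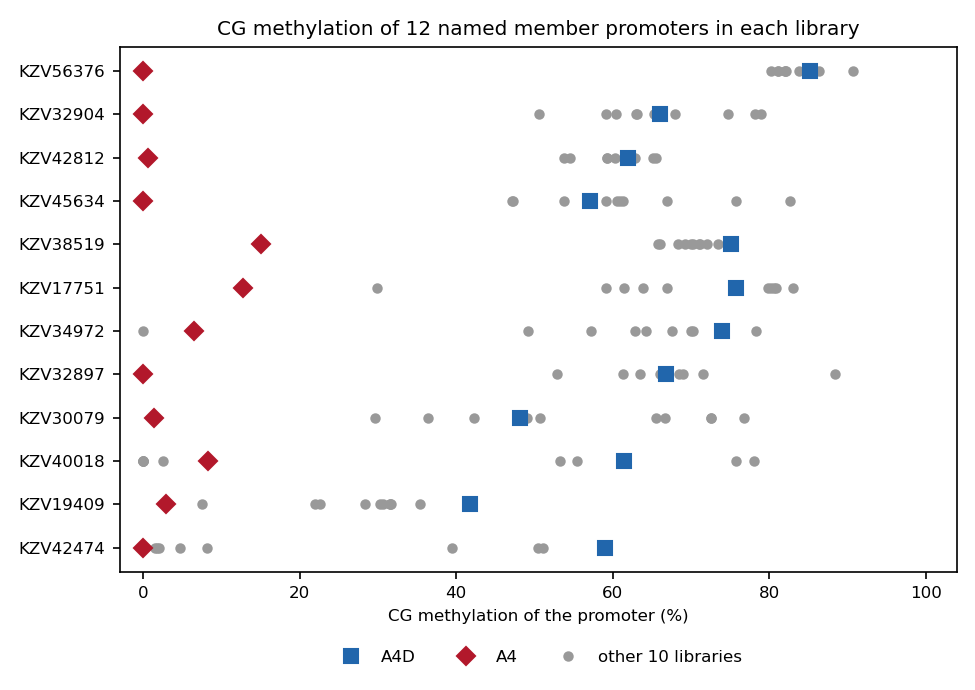
CG methylation in percent at 12 named member promoters in A4D (blue squares), A4 (red diamonds) and the other 10 libraries (grey points). At KZV56376, KZV42812 and KZV38519 the other libraries cluster near A4D, and at KZV42474 they fall on both sides.

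The promoter of KZV40018 (scaffold KV000740.1, 283365 to 283943) differed between rapidly dried and other plants. The gene encodes psbY, a small subunit of the photosystem II core. It had 61.4% CG in A4D, 78.0% in F4D, 55.4% in AD, 53.3% in A18D and 75.8% in F18D. The undried libraries A4, A, F, A18 and F18 had 8.33, 0.0, 0.0, 0.0 and 0.0%, and the slowly dried SD had 2.5%. F4 does not list this promoter. CHG methylation followed, with 42.2% in A4D, 57.3% in F4D, 60.5% in AD, 21.6% in A18D and 42.9% in F18D, and 0.0 to 10.0% in the other 6. The 2 groups of libraries do not overlap in CG or CHG. In CHH the rapidly dried libraries had 3.64 to 11.7% and A4 had 5.05%, so the groups overlap.

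Such a pattern was rare among the members. Leaving out A4D and A4, the 4 rapidly dried libraries (AD, F4D, A18D and F18D) were all above the 5 undried ones (A, F, F4, A18 and F18) at 2 of the 1037 members (0.193%) and at 0.346% of all promoters. They were all below at 4 members (0.386%) and at 1.2% of all promoters. The 2 higher ones were F511_08292, with no annotated product, and KZV41052, a protein with a LysM domain, a fold that binds chitin and peptidoglycan. KZV41052 had 46.9 to 56.6% in the 4 dried libraries and 0.0 to 40.9% in the 5 undried ones, with 64.4% in A4D and 22.3% in A4. Of the 4 lower ones, KZV24431 and F511_24227 are neighbours with the same values of 30.8 to 42.9% in the dried and 49.9 to 58.3% in the undried libraries, so they count as 1 region. These 6 promoters were named after their values were seen.

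In the drying pairs that the rule did not use, members both gained and lost CG methylation. Losses outnumbered gains among members in each pair but F18D/F18, and among all promoters in every pair. A gain of at least 10 points was found at 210 of 1071 members in SD/F (19.6%, all promoters 7.6%), and a loss at 251 (23.4%, all promoters 10.3%). In AD/A 192 of 1075 members gained (17.9%, all promoters 6.01%) and 243 lost (22.6%, all promoters 9.81%). F4D/F4, the non-acclimated pair of the same age, had 150 gains (13.9%, all promoters 6.7%) and 190 losses (17.6%, all promoters 6.93%) among 1078 members. In F18D/F18 215 of 1066 gained (20.2%, all promoters 8.07%) and 198 lost (18.6%, all promoters 8.29%). A18D/A18 had 169 gains (15.9%, all promoters 5.71%) and 229 losses (21.5%, all promoters 10.7%) among 1064. Members thus changed more often than other promoters, in both directions, and their median change was between -2.227 points (AD/A) and -0.2773 points (F18D/F18).

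**Figure D4:**
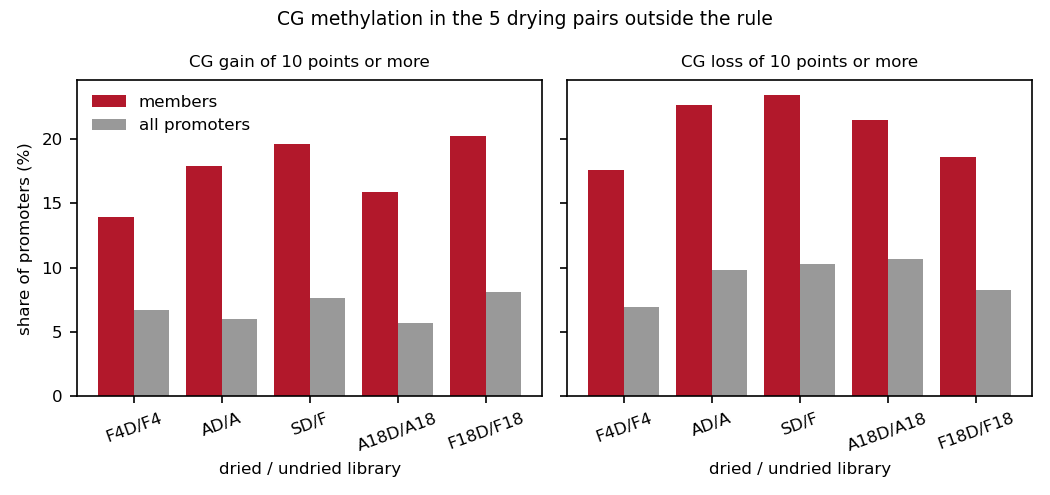
Share in percent of the members (red) and of all promoters (grey) with a CG gain (left) or loss (right) of at least 10 points in the 5 drying pairs outside the rule, dried over undried. Members are above all promoters in both panels, at 13.9 to 20.2% for gains and 17.6 to 23.4% for losses.

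A change common to the 5 pairs was tested with limma on the fractions, with the pair as a block. None of the 18238 promoters passed an adjusted p of 0.05 (Benjamini-Hochberg), in CG (0.0%), CHG (0.0%) or CHH (0.0%). The smallest adjusted p was 0.918 in CG, 0.841 in CHG and 0.789 in CHH. With 5 pairs of single libraries this fit has little power, so the lack of calls does not show that no change is shared. At an unadjusted p under 0.05 there were 877 promoters in CG (4.81%), among them 25 members with a gain and 44 with a loss. In CHG there were 1011 (5.54%), with 23 and 62 members, and in CHH 1062 (5.82%), with 17 and 61 members. The mean change over the 5 pairs had a median of -1.27 points over the members and -0.551 over all promoters in CG.

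Comparisons that contain A4 or A4D share a library with the rule and are given as values. In A4/F4 the members differed by a median of -23.19 points, and 919 of 1080 (85.1%) were at least 10 points lower in A4, against 34.7% of all promoters. In A4/A the median was -20.28 points, and 846 (78.3%) were lower in A4, against 30% of all promoters. In A18/A4 the median was 22.59 points, and 870 of 1066 (81.6%) were higher in A18, against 38.3% of all promoters. These 3 contrasts set A4 against plants before, beside and after it. In A4D/F4D, which compares the 2 dried groups, the median was 3.247 points, and 317 of 1081 (29.3%) were at least 10 points higher in A4D, against 5.21% of all promoters.

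Members lay scattered over the assembly, with some in short runs. A next-door gene tag was also a member for 208 of the 1086 (19.2%), and neighbouring promoters can share sequence. There were 13 runs of 3 or more consecutive tags, and the longest, F511_10275 to F511_10278, had gains of 23.2, 35.3, 46.6 and 36.5 points. A gene of the expression table belonged to 827 members. These lay on 400 scaffolds, with at most 15 on any of them. The files give no strand for a promoter, so promoter coordinates are not printed, and coordinates here are those of the gene.

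Expression was compared for 725 member genes that passed a minimum of 1 FPKM (fragments per kilobase of transcript, scaled to the reads mapped) in at least 3 of the 39 RNA libraries, and for 11145 genes with a promoter. Before this filter, the 827 member genes were not set apart by level from the 12752 genes with a promoter. Their median was 8.902 FPKM against 9.107 FPKM, and 20.3% against 21.1% had a mean under 1 FPKM. Calls of up- or down-regulation needed a log2 fold change of 1 or more in size together with an adjusted p of at most 0.05 (limma on log2(FPKM + 1), Benjamini-Hochberg over 18736 genes). In these bulk leaves, fewer cells of a type and less RNA per cell cannot be told apart. Of the member genes 63 were up-regulated in A4D/A4 (8.69%), against 10.8% of all genes with a promoter, and 271 were down-regulated (37.4%), against 39.4%. The median log2 fold change was -0.689 for member genes and -0.72 for all. Median-ratio scaling of the libraries moved the median of all genes by 0.574 and gave 129 member genes up (18.0%) and 177 down (24.7%), against 19.7 and 25.3% of all. Under both scalings the member genes were near the background.

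Genes were also counted by the size of the promoter gain. Among members with gains of 20 to 30 points 6.77% of 473 genes were up and 35.5% down. With 30 to 40 points 10.3% of 145 genes were up and 40% down, and with 40 points or more 15.0% of 107 were up and 42.1% down. Both shares were higher in the classes with larger gains, and they lay on both sides of the 10.8% up and 39.4% down of all tested genes with a promoter. No test was made of this. The genes of the promoters that lost at least 20 points had 12.3% up and 44.5% down of 155.

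In the other drying pairs the down shares of member genes were within 1.5 times the background, as were the up shares except in both 18-week pairs, where they were lower. No test was made of this. In F4D/F4 57 were up (7.86%, all genes 10.6%) and 288 down (39.7%, all genes 39.2%). In A18D/A18 23 were up (3.17%, all 6.14%) and 169 down (23.3%, all 22.8%), and in F18D/F18 29 were up (4.0%, all 6.16%) and 240 down (33.1%, all 32.6%). In AD/A 87 were up (12.0%, all 13.5%) and 207 down (28.6%, all 28.3%). In FD/F 88 were up (12.1%, all 14.2%) and 208 down (28.7%, all 29.2%). In SD/F 100 were up (13.8%, all 13.2%) and 167 down (23.0%, all 24.2%). With median-ratio scaling, which moved the median of all genes by 0.083 in SD/F and by up to 0.632 in F18D/F18, the shares up and down were 16.2 and 21.4% in F4D/F4 (all genes 20 and 22.6%), 7.94 and 10.2% in A18D/A18 (all 11.8 and 10.8%) and 8.08 and 9.61% in F18D/F18 (all 11.6 and 10.3%). They were 16.6 and 21.6% in AD/A (all 18.5 and 21.8%), 16.2 and 20.9% in FD/F (all 18.5 and 21.1%) and 16.0 and 20.2% in SD/F (all 14.6 and 22.0%).

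Between A4 and F4, where the members' CG median differed by -23.19 points, no member gene was called up (0.0%, all genes 0.00897%) or down (0.0%, all genes 0.0179%) by limma. At an unadjusted p under 0.05 there were 75, against 8.87% of all genes. Without A4 replicate 2 the shares were 3.45% up and 0.41% down, and without A4 replicate 3 they were 0.0% up and 1.1% down. No share of all genes is given for runs with a library left out. A difference of member genes from other genes therefore cannot be read from those runs. A4 replicate 2 listed 10145 genes at 0 FPKM, against 8153 and 7595 in the other A4 replicates. In A4/A 4 genes were up (0.552%, all 0.763%) and 5 down (0.69%, all 1.26%). There leaving out any of the 3 A4 or 3 A libraries moved at least 1 of these shares by over 1.5 times, within 0.28 to 4.14% up (highest without A4 replicate 2) and 0.14 to 2.76% down (highest without A4 replicate 3). In A18/A4 41 were up (5.66%, all 6.66%) and 44 down (6.07%, all 6.51%), which leaving out single A4 or A18 libraries moved to 2.76 to 11.86% up and 1.1 to 11.72% down. In A4D/F4D none was called up (0.0%, all 0.0%) or down (0.0%, all 0.0269%), with 27 at an unadjusted p under 0.05 (all genes 5.01%). The drying response of A4 minus that of F4 was called for no member gene in either direction (all genes 0.00897% each), with 47 at an unadjusted p under 0.05 (all genes 5.55%).

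**Figure D5:**
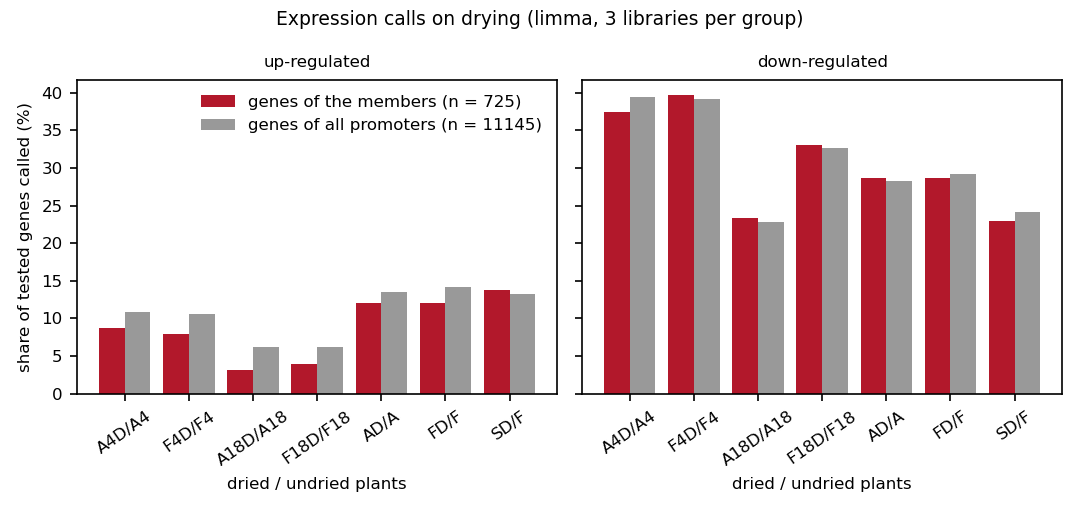
Share in percent of tested genes called up-regulated (left) and down-regulated (right) by limma in 7 comparisons of dried over undried plants, 3 libraries per group, for the 725 member genes (red) and the 11145 genes with a promoter (grey). In A4D/A4 the shares are 8.69% and 10.8% up and 37.4% and 39.4% down.

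Photosystem and antenna genes were among the down-regulated members. Of 23 promoters of photosystem and antenna proteins 4 were members (17.4%, against 6.49% of all annotated promoters), and all 4 of their genes fell in A4D/A4, as did 39.4% of all tested genes with a promoter. The median CG change of the 23 was 4.61 points, against 3.75 for all annotated promoters. KZV40018 (psbY) had 56.2, 69.5 and 40.7 FPKM in A4D, against 2420, 5850 and 2280 FPKM in A4. The groups do not overlap, and the log2 fold change was -5.85 (standard error 0.43, adjusted p = 5.2e-12). The gene fell in F4D/F4 as well (-6.69), in AD/A (-5.68), A18D/A18 (-4.46) and F18D/F18 (-3.93), and also in SD/F (-2.63), where its promoter stayed at 2.5% CG in SD and 0.0% in F. Summed over the 34 genes of a photosystem and antenna marker list, A4D had 3160 to 7440 FPKM and A4 had 92000 to 186000 FPKM, with 2 of the 34 at 0 in A4D and none in A4. The marker list of dividing tissue (77 genes) summed to 1370 to 1400 FPKM in A4D and 2700 to 7480 FPKM in A4, that of epidermis (56 genes) to 2300 to 9890 FPKM in A4D and 1740 to 8670 FPKM in A4, and that of root (5 genes) to 13.8 to 21.2 FPKM in A4D and 31.2 to 38.8 FPKM in A4. The part of these shifts in the calls was not tested.

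The antenna genes fell too, and their promoters had CG methylation with little CHG, at most 4.44% in the other 10 libraries for KZV50324. Antenna proteins bind the chlorophyll that gathers light, and their genes are near-identical copies among which reads can be misassigned, so the levels are uncertain. KZV19409, chlorophyll a-b binding protein 8 (scaffold KV016696.1, 35442 to 36446), had 98.3, 115 and 81.3 FPKM in A4D, against 6280, 11900 and 5840 FPKM in A4. Its log2 fold change was -6.27 (standard error 0.47, adjusted p = 7.3e-12). The promoter had 41.7% CG in A4D, 2.86% in A4 and 7.5 to 35.4% in the other 10, and at most 2.22% CHG in any of the 12. In F4D/F4 the gene fell by 6.39 while its promoter had 21.9% in F4D and 31.5% in F4. KZV50324, chlorophyll a-b binding protein 2, had 1930, 1460 and 603 FPKM in A4D, against 20200, 25100 and 16100 FPKM in A4 (log2 fold change -4.08, adjusted p = 5.8e-07). Its promoter had 38.3% in A4D and 0.0% in A4, and ranged between 2.0 and 80.0% in the other 10.

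Further member genes encode chloroplast proteins. KZV32036, a psbQ-like protein whose Arabidopsis relatives belong to the chloroplast NADH dehydrogenase-like complex, had 1.35, 1.75 and 1.93 FPKM in A4D, against 70.7, 165 and 32.0 FPKM in A4 (-4.78, adjusted p = 1.3e-08). Its promoter had 46.3% in A4D, 2.38% in A4 and 44.3 to 63.8% in the other 10. KZV27385, annotated as the magnesium-protoporphyrin IX monomethyl ester enzyme of chlorophyll synthesis, had 30.5, 34.4 and 22.3 FPKM in A4D, against 753 to 1010 FPKM in A4 (-4.95, adjusted p = 1.4e-10). KZV45661, the catalytic chain of ferredoxin-thioredoxin reductase, which passes light-driven electrons to thioredoxins, fell by 2.1 (adjusted p = 1.6e-05). Each of these 3 genes also fell in F4D/F4, at -4.9, -5.76 and -2.41. KZV46275, EXECUTER 1, a singlet oxygen sensor of the chloroplast in Arabidopsis, had a log2 fold change of -1.16 that did not pass (adjusted p = 0.061), and of -2.28 without A4 replicate 2 and -1.47 without A4D replicate 2, both of which passed. Its promoter had 61.1% in A4D, 0.0% in A4 and 0.0 to 50.6% in the 9 other libraries that list it.

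Other down-regulated members belong to several classes. The aspartic protease gene KZV32897 had 3.4, 7.09 and 1.84 FPKM in A4D, against 546, 180 and 261 FPKM in A4 (-5.99, standard error 0.58, adjusted p = 7.9e-10). In A18 its promoter was at 0.0% and in A18D at 68.5%, and in F4 at 88.4% and in F4D at 69.0%, and the gene fell in both pairs, with log2 fold changes of -3.57 in A18D/A18 and -4.43 in F4D/F4. The promoter level was higher in the dried library of the first pair and lower in that of the second. Each level is from 1 library, and a link with expression was not tested. The kinase gene KZV42812 had 1.92, 1.38 and 2.4 FPKM in A4D, against 35.2, 40.4 and 40.9 FPKM in A4 (-3.79, standard error 0.34, adjusted p = 2.1e-10). It fell by 3.93 in F4D/F4, where the promoter had 65.5% in F4D and 59.3% in F4. Stomagen KZV27708, a secreted peptide that raises the number of stomata in Arabidopsis, was listed at 0 in all 3 A4D libraries, against 24.3, 3.96 and 22.9 FPKM in A4 (adjusted p = 3.8e-05). KZV35177, an abscisic acid (ABA) receptor component, fell by 2.47 (adjusted p = 2.1e-08), and KZV26754, a MYB transcription factor, by 4.25 (adjusted p = 1.9e-06).

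Up-regulated members included single genes of protection and defence. By list, 1 rose and 2 fell among 6 tested members for heat shock proteins and chaperones. For oxidative stress enzymes 1 rose and 7 fell among 13, and for disease resistance proteins 1 rose and 4 fell among 7. The 1 LEA member rose. Of all tested genes with a promoter 10.8% rose and 39.4% fell. The small heat shock protein gene KZV34972 (scaffold KV005015.1, 478846 to 479328) had 547, 235 and 602 FPKM in A4D, against 6.61, 6.45 and 6.7 FPKM in A4 (log2 fold change 5.82, standard error 1.0, adjusted p = 1.7e-05). It rose by 5.34 in F4D/F4 (adjusted p = 4.9e-05), where the promoter had 62.9% in F4D and 64.3% in F4. KZV31544, glutamate-cysteine ligase, the first enzyme of glutathione synthesis, had 235, 310 and 149 FPKM in A4D, against 16.3, 7.45 and 44.3 FPKM in A4 (3.57, adjusted p = 1e-05). KZV20232, another GDSL esterase/lipase, had 25.9, 18.9 and 12.2 FPKM in A4D, against 0.12, 0.0 and 0.14 FPKM in A4, and 4.14 on the log2(FPKM + 1) scale (adjusted p = 1.4e-11). Its promoter had 32.0% in A4D and 0.223% in A4, but SD and F18D were also low, at 1.11 and 0.98%. In all 3 genes the A4D libraries lie above the A4 libraries.

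KZV53309, an F-box/kelch-repeat protein of the type that marks proteins for breakdown, rose by 2.3 on the log2 scale (adjusted p = 1.4e-06), and KZV34853, a potassium channel beta subunit, by 2.61 (adjusted p = 9.9e-07). Glycosyltransferases that decorate anthocyanins were represented by KZV51937, which rose by 3.75 (adjusted p = 2.3e-05), and KZV50680, which rose by 2.48 (adjusted p = 4.8e-05). KZV23376, a pathogenesis-related protein, had 135, 247 and 58.7 FPKM in A4D, against 16.3, 0.38 and 39.5 FPKM in A4 (3.67, adjusted p = 0.001). The LysM gene KZV41052 had 179, 164 and 125 FPKM in A4D, against 22.3, 17.5 and 28.8 FPKM in A4 (2.73, adjusted p = 0.036), and its call was lost without any single library of these 2 groups. The kinase gene KZV33022, with 70.5% in A4D and 0.0% in A4, rose by 1.33 (adjusted p = 0.026), a call lost without A4 replicate 1 or A4D replicate 3. Under the conditions set for naming called genes, 72 members fell and 19 rose. By the calls alone, 39.4% of all tested genes with a promoter fell and 10.8% rose, so falls were the more frequent among all genes too.

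Members with the largest gains did not share a direction of expression. Of the named genes above with gains over 57 points, the GDSL gene KZV56376 had 0.0, 0.16 and 0.14 FPKM in A4D, against 5.9, 0.0 and 1.75 FPKM in A4 (-1.28, adjusted p = 0.0072), a call lost without A4 replicate 1 and at a pseudocount of 0.1. KZV38519 had 49.4, 30.8 and 44.9 FPKM in A4D, against 69.6, 65.8 and 54.4 FPKM in A4 (-0.61, adjusted p = 0.082). The groups do not overlap at KZV38519, and its change stayed under the threshold. The cysteine protease gene KZV42474 had 2570, 2180 and 2150 FPKM in A4D, against 1020, 1520 and 526 FPKM in A4 (1.29, adjusted p = 0.0079), a call lost without A4 replicate 3. The NAC45 gene KZV32904 was at 0.0 FPKM in all 3 A4D libraries, against 0.47, 0.0 and 0.0 FPKM in A4, and was not tested. KZV17751, annotated as a helix-turn-helix regulator, had a promoter at 75.8% in A4D and 12.8% in A4 and fell by 4.41 (adjusted p = 6.6e-07).

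Lists of genes, drawn from words in the deposited annotation, held members at different rates. Among DNA methylation and demethylation proteins 2 of 7 promoters were members (28.6%, against 6.49% of all annotated promoters), FDM1 (KZV30079) and KZV27059. Both genes were called down in A4D/A4, as were 39.4% of all tested genes with a promoter. FDM1 had 1.82, 1.92 and 0.72 FPKM in A4D, against 20.2, 2.54 and 16.5 FPKM in A4 (-2.18, adjusted p = 0.00022), and fell by 2.87 in F4D/F4. KZV27059 had a log2 fold change of -1.03 (adjusted p = 0.032), a call lost under median-ratio scaling, at a pseudocount of 0.1 and without A4 replicate 1 or 3 or A4D replicate 2 or 3. KZV34036, an SUVH9-like protein, which in Arabidopsis binds methylated DNA and recruits an RNA polymerase of the same pathway, had 95.0% in A4D, 69.8% in A4 and 72.3 to 93.4% in the other 10, and fell by 1.71 (adjusted p = 2.5e-05).

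Lists of ribosomal, PPR and splicing proteins were counted beside the 6.49% of all annotated promoters. Members made up 17 of 148 ribosomal protein promoters (11.5%), 31 of 314 PPR promoters (9.87%) and 7 of 60 promoters of pre-mRNA splicing factors (11.7%). Of those ribosomal genes tested in A4D/A4 6 of 17 fell, as did 13 of 31 PPR genes and 1 of 7 splicing genes, and 1 PPR gene rose. Of all tested genes with a promoter 39.4% fell and 10.8% rose. The median CG change of these lists was 4.23, 4.27 and 5.62 points, against 3.75 for all annotated promoters. KZV50701, in the ribosomal list, had 33.2, 32.1 and 26.3 FPKM in A4D, against 130, 218 and 143 FPKM in A4 (-2.36, adjusted p = 3.5e-09). KZV19016, splicing factor 3B subunit 4, had 44.2, 33.3 and 52.2 FPKM in A4D, against 46.6, 38.4 and 46.9 FPKM in A4 (-0.04, adjusted p = 0.93), while its promoter had 72.9% in A4D and 21.3% in A4.

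Disease resistance proteins, the receptors that sense pathogens, held 9 members of 61 (14.8%), of which 1 rose and 4 fell among 7 tested, beside the 10.8% rising and 39.4% falling of all tested genes. Oxidative stress enzymes held 13 of 141 (9.22%), with 1 rising and 7 falling. Transporters and channels held 34 of 436 (7.8%), with 3 rising and 12 falling among 30 tested. Kinases held 34 of 742 (4.58%), with 3 rising and 10 falling among 32, and transcription factors 36 of 686 (5.25%), with 5 in each direction among 30. Transposon proteins, which elsewhere carry heavy methylation, held 3 of 66 (4.55%). No set was tested for enrichment.

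Lists of genes known for desiccation were counted in the same way, against the 6.49% of all annotated promoters. None of the 8 promoters of early light-induced proteins, which shield the chlorophyll of drying leaves, was a member. Late embryogenesis abundant (LEA) and seed maturation proteins, which guard proteins and membranes as water is lost, held 1 of 20 (5.0%). This was KZV56072, LEA 76-like, with 71.4% in A4D, 36.9% in A4 and 62.6 to 79.3% in the other 10. It had 24500, 24500 and 22400 FPKM in A4D, against 6990, 13800 and 9440 FPKM in A4 (1.3, adjusted p = 0.027), a call lost without A4 replicate 1 or 3 or without any A4D library. The ABA pathway held 2 of 67 (2.99%), and heat shock proteins and chaperones held 8 of 126 (6.35%). Of the 14 mid-term memory genes, which the study proposed as regulated by methylation and all of which have a promoter here, 1 was a member. The short-term memory genes of the study were not analysed here. This was KZV57108, a GDSL esterase/lipase, with 89.3% in A4D, 69.1% in A4 and 79.7 to 93.7% in the other 10, listed at 0 in all A4D libraries and at 17.1, 0.0 and 6.25 FPKM in A4. The other 13 gained between 0.9819 and 17.02 points.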

How the data were processed

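The authors aligned the bisulfite libraries by BSMAP, allowing 2 mismatches, and deposited, per promoter of 2 kb and context, the methylation level as a fraction. Fractions are given as percentages here. The authors deposited expression as FPKM, and the submitters' processing notes list HISAT, StringTie 1.0.4 and Bowtie2 2.2.5. The version of BSMAP and the genome build are not given in the sources used here. Fractions were joined by their own gene tag. The FPKM columns deposited beside them follow the preceding tag (Spearman 0.934 to 0.961 across genes, against 0.0684 to 0.0927 for the own tag) and were used for that check alone, and joining by the preceding tag was an alternative. CG levels followed expression as weakly by the own tag (Spearman -0.124 to -0.0702) as by the preceding tag (-0.121 to -0.0858), so expression did not settle the join. In F, CG levels followed the distances to the genes before and after the own tag (Spearman 0.16 and 0.14). They hardly followed the distance between the 2 tags before it (0.038). The members and lists were chosen with earlier results of these data known.

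The expression fit covered the 18736 of 26693 genes that reached 1 FPKM in 3 or more libraries. Values were taken as log2(FPKM + 1), and limma 3.58.1 estimated 13 group means from the 39 libraries (eBayes with trend, R 4.3.3). Tests were two-sided. The 5-pair fit used limma with the pair as a block. The scripts were tested on simulated data. Tables were made with Python 3.11.15, numpy 2.4.6 and pandas 2.3.3, and plots with matplotlib 3.10.9. Counts were not used here.

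Named genes were the 15 members with the largest gain and a named product, up to 10 called members per direction in A4D/A4 with a named product, a mean of 10 FPKM or more on the higher side and replicates that did not overlap, up to 3 members per gene list, the genes the study named as memory or methylation pathway genes, and those beside the limit of the rule. The alternatives tried were median-ratio scaling, 0.1 as pseudocount, keeping low genes, centring of libraries, other minimum changes, separate fits per comparison, a replicate block, a logit scale, and leaving out single libraries or pairs.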

Additional observations from a re-analysis of the deposited data

How the results depend on the processing

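A minimum gain of 10 or 30 points gave 5534 or 357 promoters. Centring each library on its median, which lifts A4, gave 489, all of them members as deposited. The distance of A4 from the other 10 was -31.62 points with a minimum gain of 30 points and -12.11 after centring, against -21.01 as deposited. That of A4D was 6.07 and 6.46 points, against 4.11 as deposited, so A4 and A4D were less unequal after centring. The rule favours a negative distance of A4 but does not fix it. With 20 points as the smallest change, gains and losses of members were 81 and 122 in SD/F (7.56 and 11.4%, all promoters 2.57 and 3.32%). They were 93 and 91 in AD/A (8.65 and 8.47%, all 1.76 and 2.27%) and 63 and 73 in F4D/F4 (5.84 and 6.77%, all 2.23 and 1.81%). In F18D/F18 they were 99 and 87 (9.29 and 8.16%, all 2.73 and 2.45%), and in A18D/A18 80 and 103 (7.52 and 9.68%, all 2.07 and 3.2%). There were 550 losses in A4/A (50.9%, all 5.66%) and 117 gains in A4D/F4D (10.8%, all 1.17%). With 5 points there were 276 gains and 309 losses in F4D/F4 (25.6 and 28.7%, all promoters 14.3 and 16.0%). There were 328 and 322 in F18D/F18 (30.8 and 30.2%, all 16.4 and 17.0%) and 262 and 365 in A18D/A18 (24.6 and 34.3%, all 11.3 and 22.1%). In AD/A there were 412 losses (38.3%, all 25.9%). Centring gave 554 gains in A18/A4, for which no share of all promoters is given here. The 5-pair fits called 0 members under each alternative run, and 0 to 0 with each pair left out, which says nothing of stability, since 5 pairs of single libraries give this fit little power.

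Median-ratio scaling gave 17.97% of member genes up and 24.65% down in A4D/A4, 16.16 and 21.45% in F4D/F4, 7.94 and 10.17% in A18D/A18 and 8.08 and 9.61% in F18D/F18. Fits of a comparison's own libraries gave 22.62% down in A4D/A4, 1.24% up and 14.07% down in A18D/A18, and 0.0% either way in A4/A and A18/A4. In A18D/A18 the up share was 4.81, 4.76 and 5.38% with members of 10 or 30 points or the preceding tag. In A4/A it was 0.96% with the preceding tag, and the down share was 0.41% at a pseudocount of 0.1, 1.1 and 1.59% with members of 10 or 30 points and 1.2% with the preceding tag. In A4/F4 0.04% were down with members of 10 points. In A18/A4 2.76% were down at a pseudocount of 0.1 and 3.87% without a filter. Apart from median-ratio scaling, no share of all genes is given for these settings. The cause was not tested.

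Leaving out single libraries gave 28.14 to 45.93% down and 7.72 to 9.52% up in A4D/A4, 0.0 to 1.1% down and 0.0 to 3.45% up in A4/F4, 0.14 to 2.76% down and 0.28 to 4.14% up in A4/A, 1.1 to 11.72% down and 2.76 to 11.86% up in A18/A4 and 0.0 to 0.14% down in A4D/F4D. No share of all genes is given for these runs, so a difference from other genes cannot be read from them. Replicate numbers did not pair the samples (correlations of same-numbered deviations -0.43 to 0.337, no comparison of 11 with every pair over 0.1). With a replicate block 8.69% were up and 37.1% down in A4D/A4, and no other share moved by over 1.5 times.

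Each methylation level rests on 1 pooled library and an unknown number of reads, so single promoters carry no error. The A4 value enters every member, though A4 lay above the median of the other 10 libraries at 23 of the 1037. Repeat libraries of A4 were not analysed here.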
